A study of Mus musculus with 192 samples.

Results

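The 9 genes described here encode the inhibitors, cyclins and kinases that act on the G1 phase of the cell cycle. They are the Cip/Kip inhibitors Cdkn1a, Cdkn1b and Cdkn1c, the Ink4 inhibitor Cdkn2c, the D cyclins Ccnd1, Ccnd2 and Ccnd3, and the kinases Cdk4 and Cdk6. They were taken by name from a count table of 20764 mouse genes, and all 9 were in it. The table holds 192 single LSK cells, which are lineage-negative, Sca-1-positive, cKit-positive cells of the bone marrow and include the blood stem cells and the early multipotent progenitors. The cells came from C57BL/6 mice aged 8 to 16 weeks, with no treatment or mutation named for them. The marrow had been enriched for cKit with magnetic beads before staining, and single cells were index sorted, so each cell carries its antibody and scatter signals in arbitrary units. The libraries were made by an adapted CEL-seq2 protocol, which tags the 3′ end of each captured transcript with a unique molecular identifier (UMI), in 2 pools of 96 cells.

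No animal is named for any cell, so all cells count as 1 biological sample. Intervals given below are exact 95% intervals that cover the counting of UMIs or cells only, and no test between classes could be run. In each pool the cells were ranked by a signal and divided into a lower, a middle and an upper class of 32 cells. This was done for CD135 (the receptor Flt3, which marks multipotent progenitors), CD150 (a stem cell marker), Sca-1, cKit and forward scatter (a measure of cell size). Cells with 10 or more summed UMIs of Mki67 and Top2a, which are made in proliferating cells, are called cycling here, and cells with 0 or 1 are called non-cycling. Levels are UMIs of a gene in counts per 1000000 gene UMIs of a class (CPM), and ratios are log2 of one class over another. A ratio is called past 2-fold where the gene had 50 or more UMIs over both classes and the log2 ratio was at least 1 in size.

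D cyclins bind Cdk4 and Cdk6, and the active kinases phosphorylate the retinoblastoma protein, which releases E2F factors and lets a cell pass from G1 into DNA synthesis. Ink4 inhibitors bind Cdk4 and Cdk6 directly, whereas Cip/Kip inhibitors bind cyclin-kinase complexes and act most strongly on Cdk2. In mouse bone marrow Cdkn1c and Cdkn1b are known for holding stem cells in quiescence, Cdkn1a is a target of p53, and Cdk6 is known for setting how readily stem cells leave quiescence.

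Of the 9 genes, 6 had a promoter sequence in the RefSeq table for mouse build GRCm38.p6, with 9 start sites among them; Cdkn1c, Ccnd1 and Ccnd2 were the ones without. The 250 bases before a start site are shown for both kinases, whose levels differed in opposite directions with CD135, and for Cdkn1a, which passed 2-fold in the largest number of comparisons. Capitals mark the E-box CACGTG in the Cdk4 and Cdk6 windows, and the p53 site in the Cdkn1a window. The windows are chr10:127063285-127063534 (plus strand) for Cdk4, chr5:3343643-3343892 (plus strand) for Cdk6 and chr17:29090729-29090978 (plus strand) for Cdkn1a, each written 5′ to 3′.
Cdk4: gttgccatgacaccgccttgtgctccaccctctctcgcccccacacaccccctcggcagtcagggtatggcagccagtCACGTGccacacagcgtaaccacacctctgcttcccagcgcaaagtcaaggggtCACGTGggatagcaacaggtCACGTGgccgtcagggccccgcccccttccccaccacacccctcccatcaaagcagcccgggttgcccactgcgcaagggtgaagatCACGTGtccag
Cdk6: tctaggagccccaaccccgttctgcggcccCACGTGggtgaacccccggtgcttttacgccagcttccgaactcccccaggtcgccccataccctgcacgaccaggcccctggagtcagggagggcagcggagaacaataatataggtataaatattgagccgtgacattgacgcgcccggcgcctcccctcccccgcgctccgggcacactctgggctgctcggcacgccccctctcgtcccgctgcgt
Cdkn1a: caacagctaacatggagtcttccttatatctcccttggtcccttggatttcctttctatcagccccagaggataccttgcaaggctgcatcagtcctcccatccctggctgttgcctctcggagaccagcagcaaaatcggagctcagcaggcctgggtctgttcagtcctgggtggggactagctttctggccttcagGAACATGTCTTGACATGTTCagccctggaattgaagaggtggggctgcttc

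The Cdk4 window held 4 copies of CACGTG, which reads the same on both strands, with first bases 172, 118, 98 and 11 bases before the start. The Cdk6 window held 1 copy, 220 bases before its start. That window lies inside the annotated Cdk6 gene, which begins at chr5:3341485 on the plus strand. Of 32851 windows of this length in the table, 6.02% held at least 1 copy, and the most in any window was 5. The p53 search took 20 bases, made of a pair of adjacent half-sites of 10 bases each, with 1 mismatch allowed, and found the Cdkn1a match starting 51 bases before the start. Cdkn1a has a second window in the table, chr17:29093519-29093768 (plus strand), which held no such match. Only 25 windows, 0.0761% of all, held such a match. The E2F words TTTGGCGC, TTTGCCGC, TTTCGCGC and TTTCCCGC, on either strand, were in none of the 9 windows of these genes and in 1.86% of all windows. A match describes letters only.

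After 1 cell with few UMIs was left out, 191 cells remained, with a median of 17715 gene UMIs (3927 to 49372) and 4910 genes per cell. Pool medians were 17866 and 17404 UMIs. The classes held 63 or 64 kept cells each, and there were 24 cycling cells, 16 in the first pool and 8 in the second, against 99 non-cycling cells and 68 cells between them. Cycling cells were deeper, at a median of 30742 UMIs against 16034 in non-cycling cells, and the class limits were set on UMIs as counted. All 7 markers of LSK cells were detected, among them Kit in 98.4% of cells, Cd34 in 95.3%, Flt3 in 86.4% and Ly6a, which encodes Sca-1, in 37.7%. Of the granulocyte markers S100a8 was at 0, S100a9 had 5 UMIs, and Elane was at 49.9 CPM in 21 cells, with 58.4% of its UMIs in 1 of them. The B cell markers Cd79a and Ebf1 had 42 and 21 UMIs, of which 37 and 16 lay in 1 cell of the first pool. A set of 14 cells had a CD127 (interleukin-7 receptor) signal above 2000 units, and that cell was among them. Results that move with these cells are given with and without them.

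The 9 genes together had 4718 UMIs, or 0.127% of all gene UMIs, and their levels spanned from 3.51 to 452 CPM. Because 1 UMI stands for 1 tagged 3′ end, transcript length does not enter these levels. Ccnd2 was the highest, at 452 CPM (431 to 475), with a UMI in 97.4% of cells and 0, 423 and 1543 CPM as the lowest, median and highest cell. Cdk6 followed at 302 CPM (284 to 320.0) with a UMI in 89.0% of cells, and Cdk4 at 233 CPM (218 to 249) with a UMI in 93.2%. The kinases and Ccnd2 were thus seen in most cells, and their 3 intervals did not overlap.

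Ccnd3 stood at 126.3 CPM (115 to 138) with a UMI in 80.1% of cells, and Cdkn1b at 77.7 CPM (69.0 to 87.3) with a UMI in 68.1%. Ccnd1 had 44.5 CPM (38 to 51.9) and Cdkn1a 24.6 CPM (19.8 to 30.2), with a UMI in 39.8% and 22.5% of cells. Each step in this order was larger than the counting intervals. Cdkn2c, at 36 UMIs, and Cdkn1c, at 13 UMIs in 7 cells, were near the limit of what these libraries show.

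**Figure D1:**
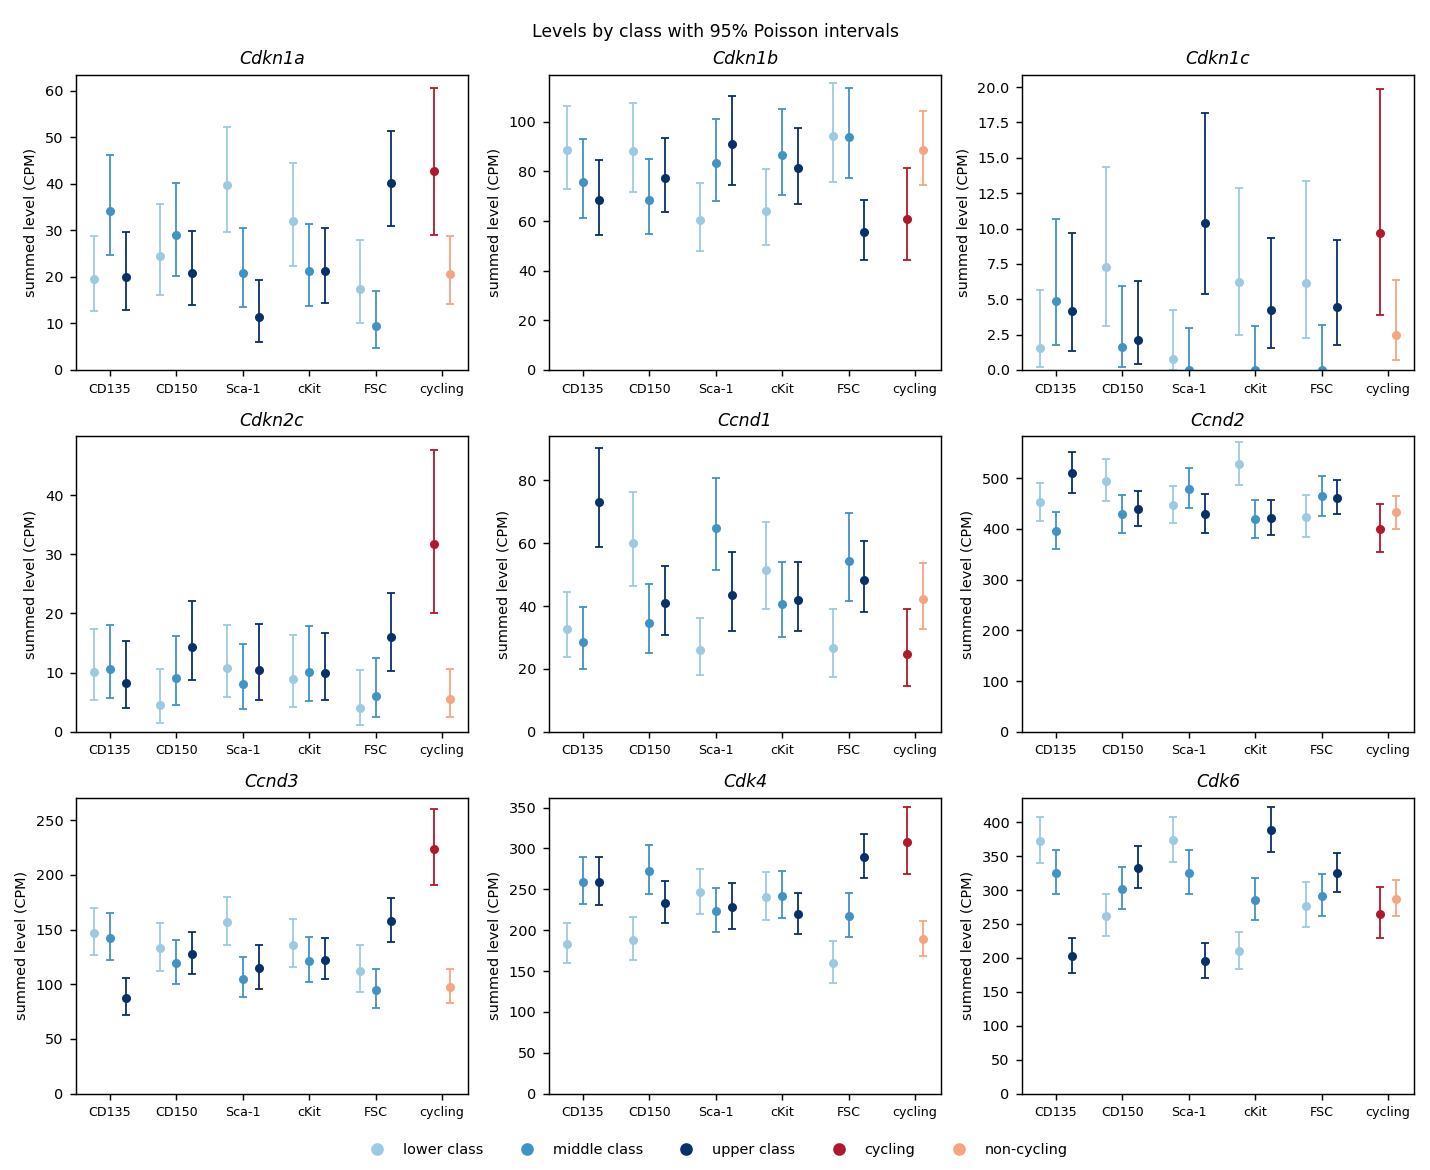
Level of each of the 9 genes, 1 panel per gene with its own linear axis from 0 (CPM), in the lower, middle and upper classes of CD135, CD150, Sca-1, cKit and forward scatter (FSC) and in cycling and non-cycling cells; bars are exact Poisson 95% intervals. Cdk6 runs down with CD135 and Sca-1 and up with cKit, and Cdk4 runs up with forward scatter.

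Counted by the 2-fold rule, few of the 9 genes stood apart in any comparison. For CD135, 6 of them had 50 or more UMIs, and 1 (Ccnd1) was past 2-fold higher in the upper class and 0 lower, against 2.83% of 7232 genes higher and 3.24% lower. For CD150, 7 had enough UMIs and 0 were past 2-fold in either direction, where 2.36% of 7275 genes were higher and 1.10% lower. For Sca-1, 0 of 7 were higher and 1 (Cdkn1a) lower, against 2.36% and 1.23% of 7164 genes. Most of the differences described below are therefore smaller than 2-fold.

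For cKit the counts were 0 of 7 in each direction, with 2.33% of 7267 genes higher and 1.83% lower. For forward scatter 1 of 7 (Cdkn1a) was higher and 0 lower, with 3.67% of 7323 genes higher and 2.17% lower. Cycling over non-cycling cells gave 2 of 7 higher (Ccnd3 and Cdkn1a) and 0 lower, with 5.52% of 6978 genes higher and 6.81% lower. Both genes past 2-fold with cycling and the Cdkn1a calls with Sca-1 and forward scatter fell below 2-fold without the 14 CD127-high cells, as given with each gene.

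**Figure D2:**
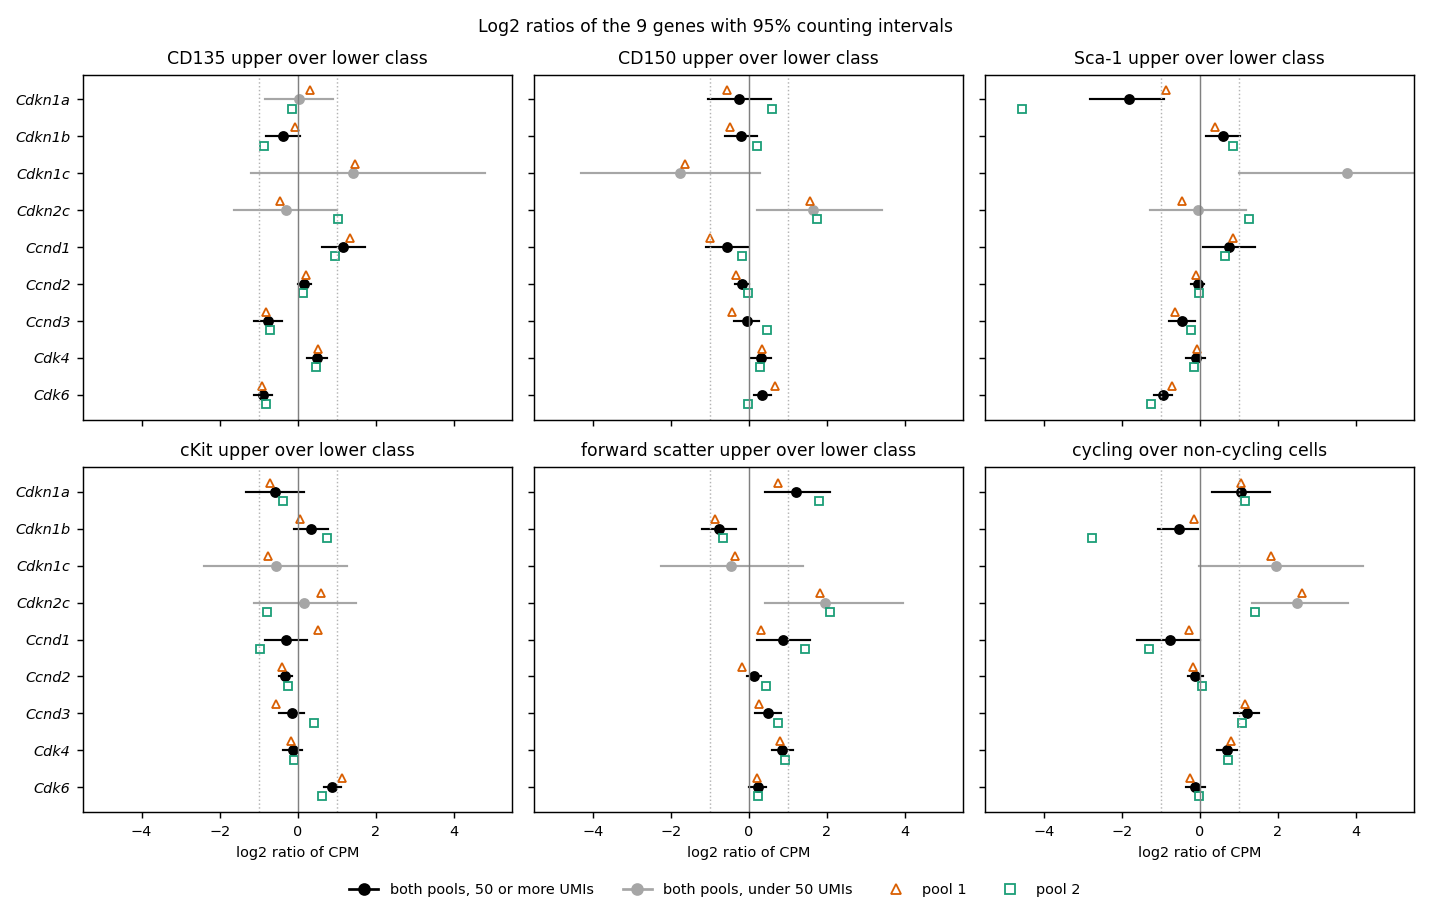
Log2 ratio of CPM for each gene, upper over lower class of each signal and cycling over non-cycling cells, with exact 95% counting intervals (circles, grey where the gene had under 50 UMIs) and each pool alone (triangles and squares). Dotted lines mark 2-fold, with Ccnd1 past it for CD135 at 1.16 and Cdk6 inside it for CD135, Sca-1 and cKit.

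All ratios are relative to the sum of gene UMIs in a class. Scaled to the ERCC spike-ins, a fixed amount of RNA added to each well, the median of all genes shifted by 0.75 in log2 between the forward scatter classes and by 0.80 with cycling. The shift was 0.30 for CD150, −0.29 for Sca-1, 0.28 for cKit and −0.07 for CD135. Per spike-in UMI there were 23.5 gene UMIs in the lower forward scatter class, 28.6 in the middle class and 39.5 in the upper class.

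Among the inhibitors, Cdkn1b (p27) made up 73.5% of Cip/Kip UMIs. It was lower in large cells, with per-cell lowest, median and highest values of 0, 72.03 and 509 CPM in the lower forward scatter class, 0, 62.2 and 459 CPM in the middle class and 0, 33.2 and 339 CPM in the upper class. Single cells overlapped over nearly the whole range, and the medians ran down with size. The summed levels were 94.1, 94.03 and 55.5 CPM, and the log2 ratio of upper over lower was −0.76 (−1.20 to −0.32), with −0.87 and −0.66 in the 2 pools. On the spike-in scale this ratio was −0.01, so that Cdkn1b UMIs per spike-in UMI were level while the median of all genes was higher in large cells.

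With Sca-1, Cdkn1b ran the other way, at 60.5, 83.5 and 91.1 CPM from the lower to the upper class, a log2 ratio of 0.59 (0.16 to 1.03). The first pool gave 0.39 (−0.18 to 0.98) and the second 0.85 (0.17 to 1.55). The spike-in shift for Sca-1, −0.29, makes the Cdkn1b ratio smaller on that scale. Its per-cell medians were 52.6, 54.0 and 69.5 CPM, and single cells of the 3 classes overlapped. With CD135 it was at 88.5, 75.8 and 68.3 CPM, a ratio of −0.37 (−0.80 to 0.05) that came from the second pool, at −0.85 against −0.06 in the first. Cycling cells had 60.7 CPM and non-cycling cells 88.4 CPM, a ratio of −0.54 (−1.07 to −0.05). The pools differed here too, at −0.16 in the first and −2.76 in the second, and the spike-in scale turned the ratio to 0.26.

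Cdkn1a (p21), the p53-induced inhibitor, was found in few cells and its UMIs were gathered in single cells. Its lowest and median cells were at 0 in every class of every signal. With Sca-1 its highest cell had 575, 283 and 188 CPM in the lower, middle and upper classes, and its summed level was 39.8, 20.9 and 11.3 CPM. The upper class held 13 UMIs and the lower class 52, a log2 ratio of −1.82 (−2.82 to −0.92), with −0.88 in the first pool and −4.56 in the second. Of the 14 CD127-high cells, 10 lay in the lower Sca-1 class, and without all 14 the ratio was −0.02, on 26 UMIs. These B cell markers summed to 45.1, 1.61 and 1.74 CPM over the same classes.

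With forward scatter Cdkn1a stood at 17.4, 9.49 and 40.2 CPM, and the upper class held 63 UMIs against 17 in the lower class, a ratio of 1.21 (0.42 to 2.07). It was 0.91 without the single cell with most B cell marker UMIs and 0.49 without the CD127-high cells, 11 of which lay in the upper class. The summed level of the B cell markers moved the same way, at 2.05 CPM in the lower class, 2.59 in the middle and 36.99 in the upper. With CD135 Cdkn1a was level between the ends, at 19.6, 34.3 and 19.98 CPM, and the middle class, which holds the B cell marker cell, was the highest. With cKit the ratio was −0.59 in all cells and 1.38, on 37 UMIs, without the CD127-high cells, 12 of which lay in the lower cKit class.

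Cdkn2c (p18), which binds Cdk4 and Cdk6, was the inhibitor with the widest difference between cycling and non-cycling cells, at 23 UMIs in the 24 cycling cells and 9 UMIs in the 99 non-cycling cells. The log2 ratio was 2.50 (1.34 to 3.80), on fewer than 50 UMIs. The first pool gave 2.61, on 20 against 5 UMIs, and the second 1.41, on 3 against 4 UMIs. Before thinning, 41.7% of cycling and 8.08% of non-cycling cells had a Cdkn2c UMI. At an equal depth of 12147 UMIs, drawn at random from each cell, one was left in 33.3% (15.6 to 55.3) of cycling cells and 5.88% (1.94 to 13.2) of non-cycling cells. The share thus remained higher in cycling cells at equal depth, and the UMIs of 1 cell numbered at most 5.

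Cdkn2c was also higher in the upper class of forward scatter, at 25 against 4 UMIs (log2 1.96, 0.43 to 3.95), and of CD150, at 20 against 5 UMIs (1.66, 0.20 to 3.43). Of the 24 cycling cells 16 lay in the upper forward scatter class, and without cycling cells that ratio was 0.18, on 7 UMIs. The upper CD150 class held 12 cycling cells and the lower class 5. Cdkn1c (p57), the inhibitor best known from quiescent stem cells, had 1 UMI in the lower Sca-1 class, 0 in the middle and 12 in the upper. Of its 13 UMIs 12 were in the first pool and 5 were in 1 cell, so no pattern can be read at this depth.

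Ccnd2 (cyclin D2) made up 72.6% of D-cyclin UMIs and differed little between classes. Its per-cell lowest, median and highest values were 0, 471 and 1543 CPM in the lower cKit class, 0, 409 and 1392 in the middle and 0, 389 and 1392 in the upper. The summed levels were 527, 419 and 421 CPM, and the ratio of upper over lower was −0.33 (−0.49 to −0.16), with −0.40 and −0.25 in the pools and −0.05 on the spike-in scale. This was the widest Ccnd2 ratio of the 6 comparisons, and the cells overlapped throughout. With CD135 the levels were 452, 396 and 510 CPM, a ratio of 0.17 (0.01 to 0.34), and cycling cells had 400.0 CPM against 432 CPM in non-cycling cells.

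Ccnd1 (cyclin D1) was higher in the upper CD135 class than in the lower. Its per-cell medians were 0, 0 and 39.04 CPM in the lower, middle and upper classes, with 0 as the lowest cell and 237, 173 and 395 CPM as the highest. The upper class thus stood above the other two, which were close to each other, and single cells of all classes overlapped at 0. Ccnd1 had a UMI in 33.3% of cells of the lower class, 32.8% of the middle and 53.1% of the upper class. After thinning, 46.4% of upper and 25.4% of lower cells had one.

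In summed UMIs Ccnd1 had 32.9, 28.5 and 73.3 CPM over the CD135 classes, with 88 UMIs in the upper and 42 in the lower, a log2 ratio of 1.16 (0.61 to 1.72). It was 1.34 in the first pool and 0.97 in the second, and 0.96 without the 8 cells with 5 or more granulocyte and erythroid marker UMIs, so that no gene of the 9 was then past 2-fold for CD135. Among non-cycling cells alone the ratio was 0.47 (−0.37 to 1.34), which counting error does not separate from 0. Ccnd1 was lower in the upper CD150 class than in the lower, at −0.56 (−1.09 to −0.02). This came mainly from the first pool, at −0.98 against −0.17 (−0.92 to 0.57) in the second. The spike-in shift for CD150, 0.30, makes this ratio smaller in size on that scale. Ccnd1 was higher in the upper Sca-1 class, at 0.74 (0.08 to 1.41), where the middle class was highest at 65.03 CPM. With forward scatter it stood at 26.6, 54.4 and 48.5 CPM, a ratio of 0.87 (0.21 to 1.57), with 0.30 and 1.45 in the pools.

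Ccnd3 (cyclin D3) ran against Ccnd1 over CD135. Its per-cell medians were 119, 96.3 and 70.9 CPM in the lower, middle and upper classes, and its highest cells 865 (lower), 1503 (middle) and 286 (upper) CPM. The medians ran down with CD135 and the classes overlapped. The summed level was 147, 143 and 87.4 CPM, with a ratio of −0.75 (−1.11 to −0.40), and −0.80 and −0.72 in the pools. In non-cycling cells it was −0.61 (−1.20 to −0.02), and without the CD127-high cells −0.67.

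With these opposite courses the make-up of the D-cyclin UMIs differed over CD135. Ccnd1 took 5.20%, 5.04% and 10.9% from the lower to the upper class, Ccnd3 took 23.3%, 25.2% and 13.0%, and Ccnd2 took 71.5%, 69.8% and 76.1%. The interval of the Ccnd1 share was 8.85 to 13.3% in the upper class and 3.77 to 6.96% in the lower class. Per UMI of the 4 inhibitors there were 5.28, 4.51 and 6.66 D-cyclin UMIs. In 172 cells thinned to equal depth, 29 cells held UMIs of all 3 D cyclins, 101 of 2, 40 of 1 and 2 of none.

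**Figure D3:**
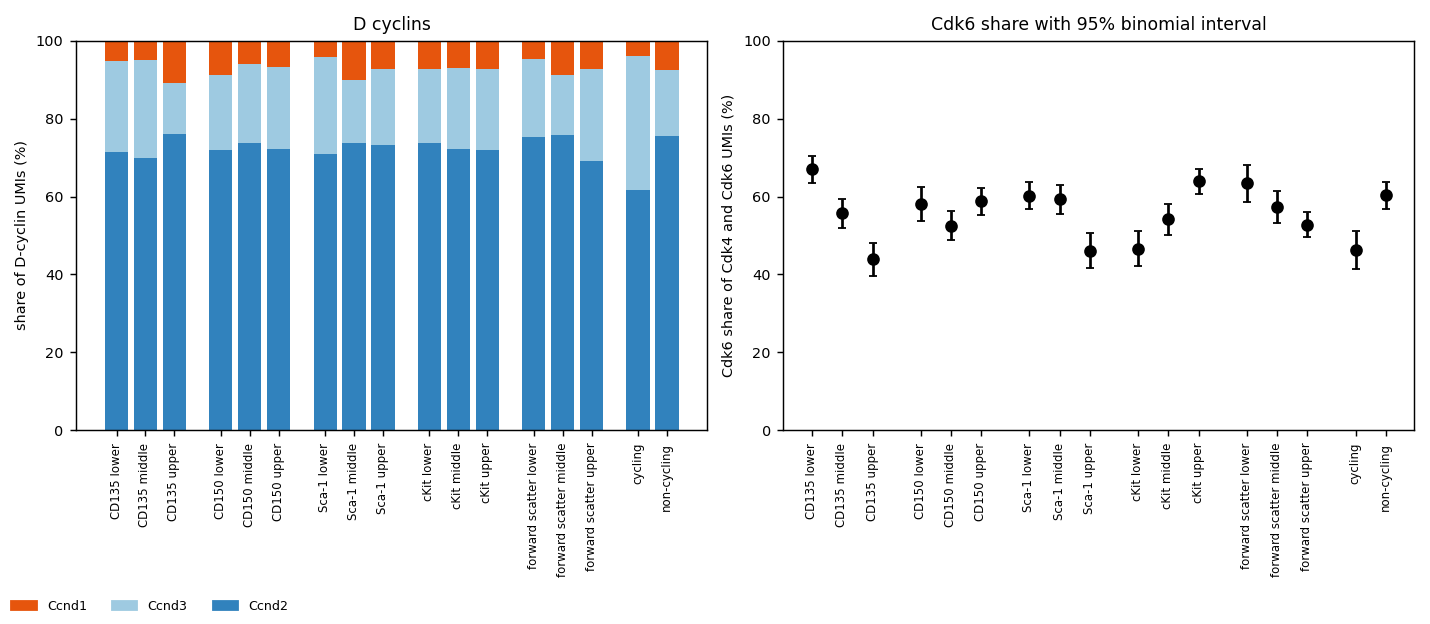
Left, share of each D cyclin among D-cyclin UMIs (%) by class; right, share of Cdk6 among Cdk4 and Cdk6 UMIs (%) by class with exact binomial 95% intervals. The Cdk6 share steps down with CD135, from 67.04% in the lower class through 55.6% in the middle to 43.9% in the upper, and up with cKit.

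Cdk6 differed over CD135, Sca-1 and cKit. Over the CD135 classes, lower to upper, its per-cell medians were 303, 248 and 179 CPM and its highest cells 886, 1619 and 716 CPM, with 0 as the lowest in each. The medians ran down with CD135, and the cells of all 3 classes overlapped. The summed levels were 373, 325 and 202 CPM, and the log2 ratio was −0.88 (−1.11 to −0.66), with −0.92 in the first pool and −0.83 in the second. Thinned to equal depth, 73.2% of upper and 93.2% of lower cells had a Cdk6 UMI.

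Over Sca-1 the Cdk6 medians were 321, 240 and 167 CPM and the summed levels 373, 325 and 195 CPM, a ratio of −0.94 (−1.17 to −0.70), with −0.70 and −1.25 in the pools. Over cKit the direction was opposite, with medians of 163, 229 and 335 CPM, summed levels of 210, 285 and 389 CPM and a ratio of 0.89 (0.66 to 1.11), with 1.13 and 0.62 in the pools. Cdk6 was thus low in CD135-high, Sca-1-high and cKit-low cells. These signals are not independent, since 36 of the 64 cells in the upper cKit class lay in the lower CD135 class and 2 in the upper. CD150 gave a smaller ratio, 0.35 (0.13 to 0.56), seen in the first pool at 0.66 and not in the second at −0.02.

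Markers of other cell types were also uneven over these classes. The detected granulocyte markers (2 of a list of 4, Elane and S100a9) summed to 125.3, 18.8 and 5.83 CPM from the lower to the upper CD135 class, to 121.7, 17.7 and 7.81 CPM over Sca-1 and to 103.3, 44.2 and 15.7 CPM over cKit. The 4 erythroid markers, all detected, summed to 76.7, 7.34 and 5.83 CPM over CD135, 71.2, 5.62 and 12.2 CPM over Sca-1 and 23.2, 36.5 and 32.04 CPM over cKit. Both lists were thus highest where Cdk6 was high for CD135 and Sca-1, and the granulocyte list was highest where Cdk6 was low for cKit. Without the 8 cells that had 5 or more UMIs of these markers the Cdk6 ratios were −0.90 for CD135, −0.96 for Sca-1 and 0.93 for cKit, as large as with them. The megakaryocyte markers (2 of 3 detected) summed to 50.9, 25.3 and 5.83 CPM over CD135, 22.2, 34.5 and 26.9 CPM over Sca-1 and 13.4, 30.6 and 37.02 CPM over cKit, and their part in the Cdk6 result was not tested.

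The Cdk6 differences were also seen among cells with few Mki67 and Top2a UMIs. In non-cycling cells the CD135 ratio was −1.27 (−1.63 to −0.92), with 172 CPM in 35 upper cells and 414 CPM in 30 lower cells. The Sca-1 ratio there was −1.39 (−1.75 to −1.04), and the cKit ratio 0.79 (0.44 to 1.15). In all cells, cycling over non-cycling gave −0.12 (−0.37 to 0.13) for Cdk6, which the spike-in scale turned to 0.68.

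Taking one signal within the classes of another, Cdk6 kept a lower level in Sca-1-high cells inside every CD135 class. The Sca-1 ratio was −0.87 (−1.32 to −0.45) in the lower, −0.56 (−0.97 to −0.14) in the middle and −0.80 (−1.32 to −0.28) in the upper CD135 class. The CD135 ratio within Sca-1 classes was −0.97 in the lower, −0.18 (−0.58 to 0.23) in the middle and −0.90 in the upper. Within the lower CD135 class, cKit made no detectable difference to Cdk6 at this depth, at 0.12 (−0.31 to 0.59) over 36 and 8 cells, but within the middle class the ratio was 1.08 (0.56 to 1.64) over 26 and 12 cells. Whether these ratios differ from each other was not tested.

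By sorting gates, 40 CD135-high cells had 202 CPM of Cdk6 and 33 stem-gated cells (CD150 among the 24 highest of the pool, CD135 below the pool median) had 374 CPM, a ratio of −0.89. The stem gate over the 62 cells of the intermediate gate (the same CD135 limit, CD150 not among the 24 highest) gave 0.07 (−0.15 to 0.29), at 374 against 357 CPM. Cdk6 was therefore lower in the CD135-high cells than in either of the CD135-low gates, which were within counting error of each other.

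Cdk4, the other D-cyclin kinase, had a ratio of the opposite sign over CD135. Its widest ratio was with forward scatter, where the interval overlapped that for cycling. Over the forward scatter classes its per-cell lowest, median and highest values were 0, 145.7 and 527 CPM in the lower, 0, 191 and 740.1 CPM in the middle and 0, 260.5 and 633 CPM in the upper. Its median ran up with size while the cells overlapped. The summed levels were 160, 217 and 290.1 CPM, a ratio of 0.86 (0.60 to 1.13), with 0.80 and 0.94 in the pools. In non-cycling cells alone it was 0.81 (0.39 to 1.22), with 264 CPM in large and 151.02 CPM in small cells. The granulocyte markers summed to 9.21, 7.76 and 109.7 CPM over the same classes, and without the 8 cells with 5 or more granulocyte and erythroid marker UMIs the Cdk4 ratio was 0.95.

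Over CD135 Cdk4 had 183, 259 and 259 CPM, a ratio of 0.50 (0.25 to 0.75), with 0.52 and 0.47 in the pools, and its per-cell medians were 175.4, 239 and 197 CPM. In non-cycling cells the ratio was 0.16 (−0.27 to 0.60), and without the CD127-high cells 0.29. CD150 gave 0.31 (0.06 to 0.57), and Sca-1 and cKit gave −0.11 and −0.13, the second of which turned to 0.14 on the spike-in scale. Cdk4 was higher in cycling cells, at 308 CPM against 189 CPM in non-cycling cells, a ratio of 0.70 (0.45 to 0.96), with 0.80 and 0.72 in the pools.

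The share of Cdk6 among the UMIs of both kinases followed from these courses. It was 67.04% (63.4 to 70.5) in the lower CD135 class, 55.6% (51.9 to 59.3) in the middle and 43.9% (39.7 to 48.1) in the upper. Over cKit it was 46.6%, 54.1% and 63.9%, and over Sca-1 60.2%, 59.3% and 46.1%. Cycling cells had 46.3% and non-cycling cells 60.3%. At equal depth 77.3% of 172 cells had UMIs of both kinases, and 6 had neither.

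Cycling cells were higher in Ccnd3 beyond 2-fold. Their lowest, median and highest cells had 33.8, 128.05 and 1503 CPM, against 0, 74.5 and 381 CPM in non-cycling cells, so that the groups overlapped. Every cycling cell had a Ccnd3 UMI before thinning, but these cells were also deeper. At equal depth 83.3% (62.6 to 95.3) of cycling and 57.6% (46.4 to 68.3) of non-cycling cells had one. The summed levels were 224 CPM in cycling and 97.2 CPM in non-cycling cells, a ratio of 1.20 (0.88 to 1.53), with 1.17 and 1.08 in the pools. Few cells held a large part of these UMIs. The 4 CD127-high cells among them had 82 of the 162 Ccnd3 UMIs of the 24 cycling cells (50.6%), and 51 of the 82 were in the cell with most B cell marker UMIs. Without that cell the ratio was 0.73, and without all CD127-high cells it was 0.44. The erythroid markers summed to 93.8 CPM in cycling and 9.34 CPM in non-cycling cells, and without the 8 cells with 5 or more granulocyte and erythroid marker UMIs the Ccnd3 ratio was 1.36.

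**Figure D4:**
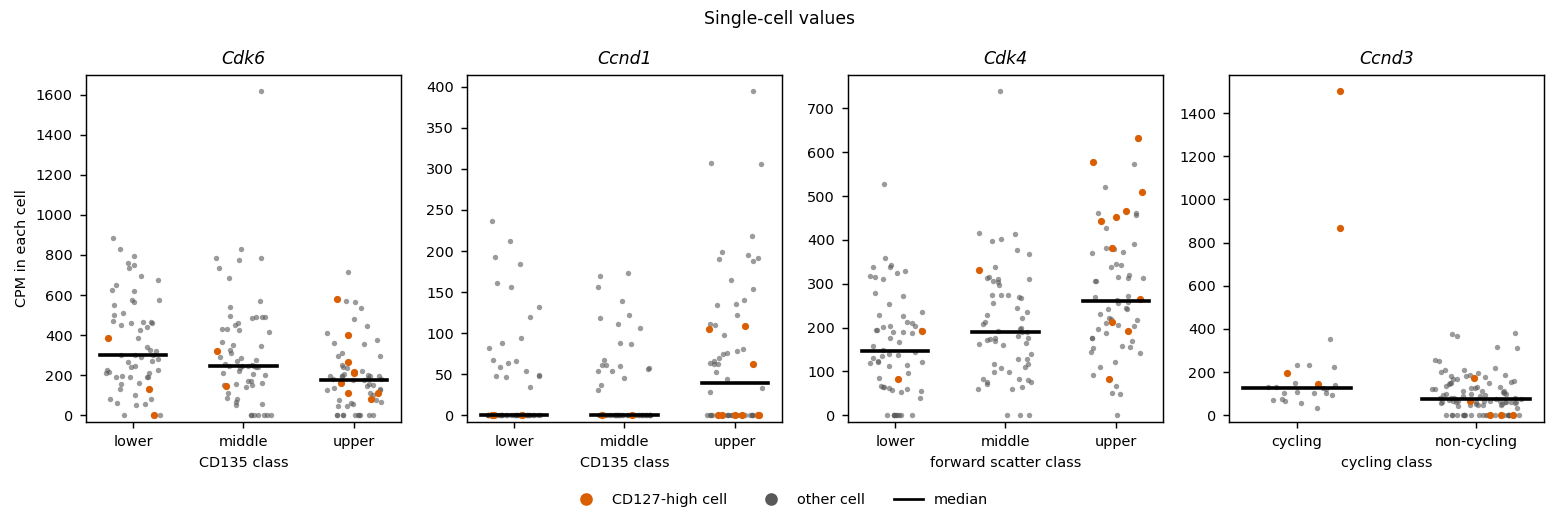
Per-cell levels (CPM) of Cdk6 and Ccnd1 by CD135 class, Cdk4 by forward scatter class, and Ccnd3 in cycling and non-cycling cells; each point is a cell, orange where CD127-high, and bars are medians. The Cdk6 medians are 303, 248 and 179 CPM from the lower to the upper class, the points of all classes overlap, and the highest Ccnd3 value, 1503 CPM, is a CD127-high cycling cell.

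Cdkn1a had 42.8 CPM in cycling cells and 20.6 CPM in non-cycling cells, a ratio of 1.06 (0.30 to 1.81) on 31 and 33 UMIs. Of those 31 UMIs 24 (77.4%) were in the 4 CD127-high cells, and without all 14 such cells the ratio was −0.15, on 27 UMIs. The summed B cell marker level was 73.1 CPM in cycling and 3.74 CPM in non-cycling cells. Ccnd1 was at 24.8 CPM in cycling and 42.4 CPM in non-cycling cells, a ratio of −0.77 that reached 0.03 on the spike-in scale and 0.12 when cycling was taken from 5 summed UMIs. For Ccnd2 the ratio was −0.11 (−0.31 to 0.09), turning to 0.69 on the spike-in scale.

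The D-cyclin make-up of cycling cells was 34.5% Ccnd3 and 61.7% Ccnd2, against 16.99% and 75.6% in non-cycling cells. Without the CD127-high cells Ccnd3 took 23.95% (19.5 to 28.9) in 20 cycling cells and 17.4% (14.9 to 20.05) in 94 non-cycling cells, and Ccnd2 took 70.7% and 75.1%. D-cyclin UMIs per inhibitor UMI numbered 4.88 in non-cycling cells, 6.82 in the cells between and 4.48 in cycling cells.

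**Figure D5:**
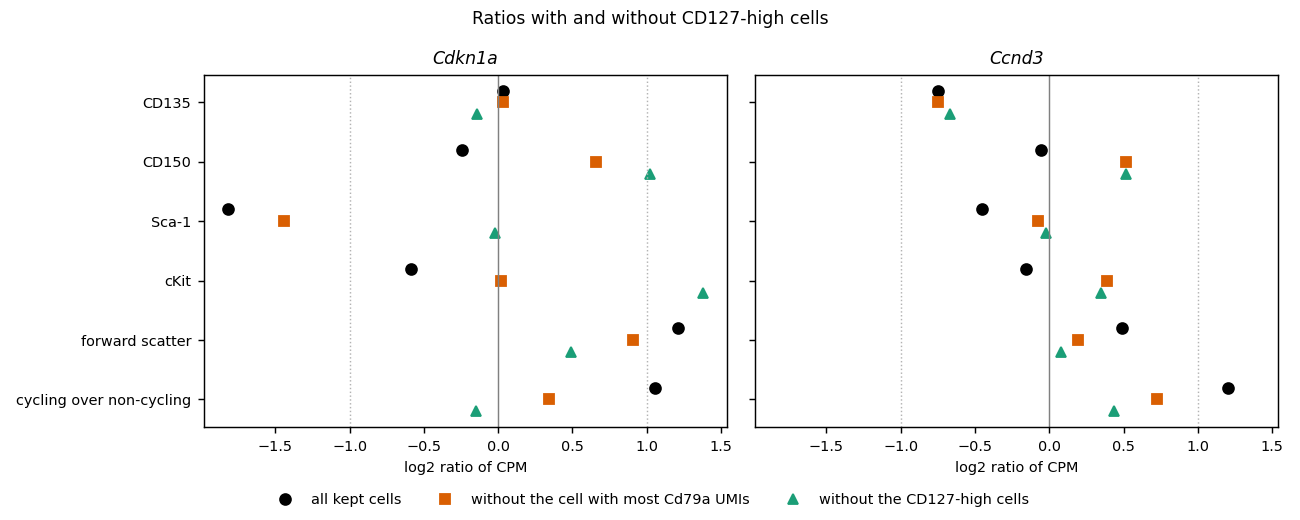
Log2 ratios of Cdkn1a and Ccnd3 for all 6 comparisons, with all kept cells, without the 1 cell with most Cd79a UMIs and without the 14 CD127-high cells. The Cdkn1a ratio for Sca-1 goes to −0.02 and that for cycling to −0.15 without the CD127-high cells, while the Ccnd3 ratio for CD135 stays at −0.67.

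The 14 CD127-high cells themselves differed in several of the 9 genes from the other 177. Cdkn1a had 128.4 CPM in CD127-high cells and 15.3 CPM in the others, and 7 of the 14 cells had a UMI. Of the 39 Cdkn1a UMIs of the 14 cells, 33 lay in 3 cells, and the other 11 cells had 25.9 CPM. The summed level of Ccnd3 gave a log2 ratio of 1.40 (1.05 to 1.73), but 69 of its 89 UMIs lay in 2 cells. The other 12 CD127-high cells had 80.4 CPM, against 111.4 CPM in the 177 others, and the median was 53.8 CPM among all 14 and 94.2 CPM among the others. Cdk4 was higher at 0.73 (0.42 to 1.01). Cdkn1b was lower at −1.17 (−2.19 to −0.31), on 11 UMIs in the 14 cells, and Ccnd1 at −1.24 (−2.71 to −0.09), on 6 UMIs.

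Of the 14, 9 lay in the upper CD135 class, and there they could be set against 55 other cells with a like CD135 rank. Cdk4 remained higher, at 0.95 (0.58 to 1.31). Cdkn1a was at 2.51, on 13 and 11 UMIs, but 10 of the 13 lay in 1 cell. Ccnd3 was at 0.09 (−0.71 to 0.82), and 19 of the 89 Ccnd3 UMIs of the 14 cells lay in these 9. Of the others, 1 cell in the middle CD135 class was the cell with most B cell marker UMIs, and it alone held 51 of all 468 Ccnd3 UMIs (10.9%) and 13 of all 91 Cdkn1a UMIs (14.3%).

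Other genes of the G1/S pathway were followed as a list of 30 inhibitors, pocket proteins, E2F factors, later cyclins and activators, 29 of which were in the table. With cycling, 18 had enough UMIs, and 8 were past 2-fold higher and 1 lower, against 5.52% and 6.81% of all genes tested. The median log2 ratio was 0.83 against −0.07 over all genes tested. The widest were Ccna2 (cyclin A2, which acts in S phase and G2) at 6.03, the mitotic cyclin Ccnb2 at 5.505, the repressor E2f8 at 3.88 and the mitotic kinase Cdk1 at 3.38. Cdk7, which activates other Cdks, was lower at −1.42. These ratios of the later cyclins and Cdk1 were far wider than those of the D cyclins and their kinases in the same cells. The cycling class was itself set by Mki67 and Top2a UMIs. Wide ratios of other genes made in proliferating cells therefore follow in part from that rule, and the contrast was not tested.

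With forward scatter 7 of 20 list genes were past 2-fold higher and 1 lower, against 3.67% and 2.17% of all genes tested. The median was 0.69 against −0.03 over all genes. The widest were Ccne2 (cyclin E2) at 3.57, Ccna2 at 3.13, E2f1 at 2.68 and E2f8 at 1.96, with Cdk7 at −1.28. With CD150 4 of 19 were higher and 0 lower, against 2.36% and 1.10% of all genes, at a median of 0.34 against −0.01. They were Ccna2 at 2.61, E2f8 at 1.56, Cdk1 at 1.496 and Ccnb2 at 1.27. With CD135 0 of 19 were higher and 3 lower, against 2.83% and 3.24% of all genes, at a median of −0.30 against −0.04. The 3 were Ccnb2 at −2.37, E2f8 at −1.22 and Cdk1 at −1.15. Ccnd1 was past 2-fold higher in the CD135 class in which these 3 genes were lower. Of the 19 genes, 13 were below 0 and 6 above. Mki67 was lower in that class, at −0.41 (−0.71 to −0.12), and Top2a was level, at 0.09 (−0.14 to 0.32). The lower CD135 class held 12 cycling cells and the upper class 7. Whether the Ccnd1 difference is tied to that of these genes was not tested.

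With cKit 2 of 20 were higher, E2f8 at 1.58 and Ccnb2 at 1.18, and 0 lower, against 2.33% and 1.83% of all genes. The median was 0.33 against 0.05. With Sca-1 0 of 20 passed in either direction, where 2.36% of all genes were higher and 1.23% lower, at a median of −0.26 against 0.01. Single cells weigh on these values, since 1 cell held 22.95% of the Ccna2 UMIs and 33.7% of the Ccnb2 UMIs of the cycling comparison. Of 12 p53 targets other than Cdkn1a, 4 or 5 had enough UMIs in each comparison. With cycling, 2 of 5 were past 2-fold lower, Trp53inp1 at −1.58 and Mdm2 (which marks p53 for degradation) at −1.23, and 0 higher, against 6.81% of all genes lower and 5.52% higher. The median of the list was −0.09 and that of all genes tested −0.07. None of the list passed in the other 5 comparisons. For Sca-1 and forward scatter that was 0 of 4 genes, too few to compare with Cdkn1a when few of all genes passed. The Cdkn1a calls in those 2 comparisons also fell below 2-fold without the CD127-high cells, and a part of p53 was not tested.

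Among single cells the 9 genes showed little common variation. Over the 172 thinned cells, Spearman's rho for the 36 pairs lay between −0.15 and 0.23, a description over cells that share library and source. Across 5136 other genes, the highest rho with any of the 6 genes with enough UMIs was 0.34, for Cdk4, and no gene reached the 0.4 set for naming one.

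By the GENCODE annotation of GRCm38, the genes lie at chr17:29090976-29100727 (Cdkn1a, plus strand), chr6:134920401-134925513 (Cdkn1b, plus), chr7:143458339-143461050 (Cdkn1c, minus) and chr4:109660876-109667189 (Cdkn2c, minus). The cyclins lie at chr7:144929931-144939925 (Ccnd1, minus), chr6:127125162-127152193 (Ccnd2, minus) and chr17:47505051-47599691 (Ccnd3, plus), and the kinases at chr10:127063534-127067920 (Cdk4, plus) and chr5:3341485-3531008 (Cdk6, plus). Ccnd1, Ccnd3 and Cdk4 overlap the genes LTO1, Bysl and Tspan31 on the opposite strand, which had 60, 58 and 72 UMIs. Whether counting used the strand is not given, so reads of such pairs cannot be told apart.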

How the data were processed

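The 192 cells were measured by an adapted CEL-seq2 protocol in 2 library pools. The deposited table holds whole-number UMI counts per gene and cell, taken as raw counts from their values. Per the submitters' processing notes the build was GRCh38, although the gene IDs are those of mouse Ensembl. The aligner and counter, and whether strand was used, were not given in the sources used here. Symbols and positions came from GENCODE for GRCm38, which named 20530 of 20764 IDs, and promoter sequences from RefSeq (GRCm38.p6). Rows of 71 ERCC spike-ins were left out of totals.

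Cells with under 20% of the median UMIs of their pool were left out, which removed 1 cell with 708 UMIs. Doublets were not called, since single cells were sorted into wells. The 3 classes of 32 cells were ranked within a pool before this filter, with ties broken by accession order. Tied cells straddled only the forward scatter limits, 5 in the first pool and 3 and 2 in the second. A level is the summed UMIs of a gene in a class over the gene UMIs of that class. Levels have exact Poisson, ratios exact conditional binomial and shares exact Clopper-Pearson 95% intervals, which cover counting error only. Shares at equal depth used cells thinned to 12147 UMIs, which kept 172 cells and left out 19. With 1 biological sample no test was run, and the replicate spread is unknown.

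The genes named are the 9 members, Mki67 and Top2a, and from a list of 30 G1/S genes and one of 12 p53 targets up to 4 per direction past 2-fold. One of the planned cell type markers is not reported here. Members and lists were chosen with earlier results of these data known. Alternatives were the fold and UMI limits, the scaling, the filter, single pools, the class limits, and leaving out CD127-high, cycling or top cells. Leaving out the cell with most Cd79a UMIs or the 8 cells with 5 or more granulocyte and erythroid marker UMIs, D-cyclin shares without CD127-high cells, classes of one signal within those of another, Sca-1, cKit and forward scatter in non-cycling cells alone, and classes of CD16/32, CD11b, side scatter and CD127 were chosen after seeing the data. The ratio step was tested on simulated class sums that held counting error only and no spread between cells. Python 3.11.15, numpy 2.4.6, pandas 2.3.3, scipy 1.17.1 and matplotlib 3.10.9 were used.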

Additional observations from a re-analysis of the deposited data

How the results depend on the processing

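The counts of the 9 genes past 2-fold are small, so 1 gene near the limit moves them. For CD135 the count was 1 (Ccnd1), 0 from mean per-cell CPM, in the second pool alone or without the 8 cells with 5 or more granulocyte and erythroid marker UMIs, and 3 at 1.5-fold. For CD150 it was 0, and 1 (Cdkn2c) with a limit of 20 UMIs. For Sca-1 it was 1 (Cdkn1a), 2 on the spike-in scale, which adds Cdk6, 0 in the first pool alone or without CD127-high cells and 4 at 1.5-fold. In the second pool alone, and without cycling cells, the 1 gene was Cdk6. For cKit it was 0, 1 (Cdk6) on the spike-in scale or in the first pool alone and 2 at 1.5-fold.

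For forward scatter the count was 1 (Cdkn1a), 4 on the spike-in scale (adding Ccnd1, Ccnd3 and Cdk4) or at 1.5-fold, 2 with a limit of 20 UMIs or with ties broken in reverse, and 0 in the first pool alone, without CD127-high cells, without the top cell of each gene or without the cell with most Cd79a UMIs. For cycling it was 2 (Ccnd3 and Cdkn1a), 4 at 1.5-fold, 1 in the first pool alone or with non-cycling cells at 0 UMIs, and 0 without CD127-high cells, without the top cell, without the cell with most Cd79a UMIs or with cycling taken from 5 UMIs. The Cdkn1a ratio for cycling turned to −0.15 without CD127-high cells.

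Over all genes tested, the share past the limit in either direction at 1.5-fold was 18.3% for CD135, 13.9% for CD150, 16.5% for Sca-1, 15.5% for cKit, 20.3% for forward scatter and 33.4% for cycling. On the spike-in scale at 2-fold it was 4.68% for Sca-1, 6.69% for cKit and 26.2% for forward scatter, where 25.96% were higher. With a limit of 20 UMIs it was 7.31% for CD150 and 9.64% for forward scatter.

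Of 746 alternative ratios of single members 664 stayed within the interval of the value reported, 81 moved outside it (22 on the spike-in scale, 23 in single pools) and 1 was a value past 2-fold that changed sign. Of all 746, 67 had another sign than the value reported, over 25 of the 54 ratios. The causes were not tested. The Cdk6 ratios kept their sign under these alternatives for CD135, Sca-1 and cKit, over −0.97 to −0.63, −1.25 to −0.67 and 0.53 to 1.16; ratios in non-cycling cells alone or within classes of another signal, given with Cdk6, lie outside these ranges. Depth limits Cdkn1c and Cdkn2c to presence in few cells. No paired analysis was possible because the cells have no replicate pairs and no test was run.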

Other observations

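The other signals recorded at the sort gave further values for the 9 genes. With CD16/32, the Fc receptor that marks myeloid progenitors, Cdk6 was at 371 CPM in the upper class and 238 CPM in the lower class, a log2 ratio of 0.64 (0.43 to 0.86), and Ccnd2 was at −0.29. With CD11b, an integrin of myeloid cells, Cdk4 gave 0.27 (0.03 to 0.51) and Ccnd2 −0.33, while Cdkn2c had 20 UMIs in the upper class and 6 in the lower. Side scatter, a measure of granularity, gave Cdk4 266 CPM in the upper and 196 CPM in the lower class, a ratio of 0.44 (0.19 to 0.69), with Ccnd2 at −0.24. Over classes of CD127, Cdkn1a had 64 UMIs in the upper and 13 in the lower class, a ratio of 2.04, and Ccnd3 was at 0.62. The upper class holds the 14 CD127-high cells. They had 39 Cdkn1a UMIs, 33 of them in 3 cells, and 89 Ccnd3 UMIs, 69 of them in 2 cells. The other 12 CD127-high cells had 80.4 CPM of Ccnd3, against 111.4 CPM in the cells that were not CD127-high. Ratios over the CD127 classes without the CD127-high cells were not taken. Relative to all gene UMIs, Ccnd2 was thus lower in the upper class of cKit, CD16/32, CD11b and side scatter, at −0.33, −0.29, −0.33 and −0.24. It differed little over CD135 and cycling. The cKit ratio was near level on the spike-in scale, as given with Ccnd2. For CD16/32, CD11b and side scatter no spike-in values or single pools were taken. All these signals were recorded on the same cells, so the ratios are not separate results.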
